A study of Rattus norvegicus with 8 samples.

Results

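The genes described here are 10 genes of the circadian clock, *Bhlhe40*, *Bhlhe41*, *Per1*, *Per2*, *Per3*, *Dbp*, *Nr1d1*, *Nr1d2*, *Ciart* and *Clock*, out of 22601 genes listed in every rat hippocampal library. They were found by their NCBI GeneIDs and were chosen by results of these same libraries: *Bhlhe40* was already known to differ between the groups. Their differences between groups are therefore given as a description, with no p-value, and nothing is read from counts of members past a threshold. All 10 were listed above 3 FPKM in each of the 8 libraries (FPKM, fragments per kilobase of transcript, scaled to the mapped fragments of the library), so none was lost to the filter on low values.

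Each library came from 1 wild type Wistar rat of 180 to 220 g at purchase, and the ages of the rats are not given in the sources used here. The Con. group (n = 3) received saline and later the solvent of Q808. The PTZ group (n = 3) received pentylenetetrazole (PTZ), a convulsant that blocks GABA-A receptors, in repeated injections below the convulsive dose with a larger final dose, which kindles seizures, and then the solvent. The Q808 group (n = 2) was kindled in the same way and then given Q808, an anticonvulsant candidate, daily by gavage. Rats of the PTZ and Q808 groups, but not those of the Con. group, were given PTZ once more on the day after the last gavage, and the hippocampus was dissected after the seizures had been scored. The rats lived in a light and dark cycle, but the hour of dissection is not given for any rat in the sources used here.

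The clock of a mammalian cell is a feedback loop of transcription. The proteins of *Clock* and *Bmal1* (*Arntl* in older naming) bind the DNA sequence called the E-box and switch on the *Per* and *Cry* genes, whose proteins in turn repress that pair, while the nuclear receptors of *Nr1d1* and *Nr1d2* repress *Bmal1*. *Dbp*, *Bhlhe40*, *Bhlhe41* and *Ciart* are outputs of the same loop, and the proteins of the last 3 repress it as well. *Per1*, *Per2* and *Bhlhe40* are also known to respond to stimuli outside the clock, such as neuronal activity and hormones.

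Promoter stretches of 3 members are shown because they hold the sequences through which this loop works. They are the 250 bases before the annotated start of each gene in RefSeq (build GRCr8), 5′ to 3′ on the strand of the gene, at chr4:143174200-143174449 (plus strand) for *Bhlhe40*, chr9:99496994-99497243 (minus strand) for *Per2* and chr2:186112247-186112496 (minus strand) for *Ciart*. Capitals mark the E-box CACGTG in *Bhlhe40* and *Ciart*, and the D-box TTATGTAA and the E-box variant CACGTT in *Per2*.
Bhlhe40: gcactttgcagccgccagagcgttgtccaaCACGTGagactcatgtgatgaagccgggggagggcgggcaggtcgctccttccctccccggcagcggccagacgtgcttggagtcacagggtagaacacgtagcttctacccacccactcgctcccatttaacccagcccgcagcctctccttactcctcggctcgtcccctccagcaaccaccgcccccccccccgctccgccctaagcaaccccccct
Per2: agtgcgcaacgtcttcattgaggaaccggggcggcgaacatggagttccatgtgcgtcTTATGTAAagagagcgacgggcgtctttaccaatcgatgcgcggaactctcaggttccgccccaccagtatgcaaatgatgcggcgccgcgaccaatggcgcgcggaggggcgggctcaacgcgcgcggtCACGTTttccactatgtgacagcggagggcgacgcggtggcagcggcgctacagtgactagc
Ciart: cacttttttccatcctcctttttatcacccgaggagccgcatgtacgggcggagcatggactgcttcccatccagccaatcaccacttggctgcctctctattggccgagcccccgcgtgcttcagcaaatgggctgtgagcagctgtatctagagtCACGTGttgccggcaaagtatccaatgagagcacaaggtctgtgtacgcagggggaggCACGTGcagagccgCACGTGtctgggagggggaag
The E-box lay 220 bases before the start of *Bhlhe40*, and the 3 E-boxes of *Ciart* began 93, 35 and 21 bases before its start.

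Windows of 300 bases, from 250 before to 50 after the start, were searched on both strands in all 10 members. The E-box CACGTG was found in *Bhlhe40*, *Bhlhe41* and *Ciart*, and in 6.42% of the 33469 windows of all RefSeq genes. The variant CACGTT was found in *Per2* and *Nr1d1*, against 4.83% of all windows. The D-box, written as TTATGTAA or TTACGTAA and bound by the protein of *Dbp*, was found in *Per2*, against 1.01% of all windows. The ROR element cores TAGGTCA and TGGGTCA, through which *Nr1d1* and *Nr1d2* act, were in no member and in 6.6% of all windows, and of the 14 other clock genes with a window only *Bmal1* held one. The cAMP response element TGACGTCA, a sequence through which neuronal activity acts on many genes, was in no member and in 1.83% of all windows. The shorter TGACG, which is contained in the full element, was in *Per2*, *Per3* and *Nr1d2* and in 21.2% of all windows. No searched sequence lay in the windows of *Per1*, *Dbp* and *Clock*. Only the window at the annotated start of each gene was searched, so sequences farther away or at another start were not seen. These matches describe the windows and say nothing of binding.

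In 3 libraries, Con.-3, PTZ-3 and Q808-1, genes of the striatum stood far above the other 5. The mean log2(FPKM + 0.1) of 5 striatum markers (*Drd1*, *Drd2*, *Adora2a*, *Rgs9* and *Pde10a*) was between 5.30 and 6.77 in those 3 libraries and between 1.14 and 2.09 in the other 5. The summed FPKM of 6 pyramidal cell markers lay between 129.6 and 192.8 in the 3 libraries and between 293.9 and 350.3 elsewhere, and 5 dentate granule cell markers gave 40.0 to 130.6 against 156.2 to 202.4. Oligodendrocyte markers (8 genes) summed to between 7172 and 13960 FPKM in the 3 libraries, against 2767 to 4577 elsewhere. Choroid plexus markers (5 genes with values) divided the libraries in another way, with mean log2 levels of 4.71, 4.89 and 6.41 in Con.-1, Con.-2 and Q808-2 and of 1.23 to 3.00 in the other 5 libraries. Over all libraries the mean log2 levels were 6.75 to 7.50 for 6 astrocyte, 3.73 to 4.97 for 6 microglia and 2.84 to 4.54 for 6 endothelial markers, with the highest of each in Q808-1. In whole tissue, fewer cells of a type and less RNA per cell cannot be told apart. Each group holds 1 library of the 3, so the differences of the members and the counts for each gene list are given with all libraries and again among the 5 libraries with low striatum markers, where the Q808 group is 1 rat.

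In the Con. group the order of the mean levels was *Dbp*, *Bhlhe41*, *Nr1d1*, *Bhlhe40*, *Nr1d2*, *Per1*, *Clock*, *Per2*, *Per3* and *Ciart*. The means ran from 67.1 ± 26.7 FPKM (SD, n = 3) for *Dbp*, a transcription factor that binds the D-box, to 5.41 ± 2.42 FPKM (SD, n = 3) for *Ciart*, a repressor of the *Clock* and *Bmal1* pair. Of the 9 pairs of neighbours in this order only *Nr1d1* and *Bhlhe40* had ranges that did not overlap in the Con. group, 27.8 to 40.4 FPKM and 19.1 to 27.4 FPKM. *Clock* was above *Per2* in 4 of the 8 libraries, so that these neighbours had no fixed order.

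*Bhlhe40*, which codes for a helix-loop-helix repressor of clock transcription, had the largest difference of the members between PTZ and Con. It was 26.8, 27.4 and 19.1 FPKM in Con.-1, Con.-2 and Con.-3, and 59.8, 63.6 and 31.4 FPKM in PTZ-1, PTZ-2 and PTZ-3. In Q808-1 and Q808-2 it was 21.3 and 30.8 FPKM. All PTZ libraries lay above all others, but PTZ-3 was only just above Q808-2, and PTZ-1 and PTZ-2 were far above both. The mean was 24.4 ± 4.65 FPKM (SD, n = 3) in Con., 51.6 ± 17.6 FPKM (SD, n = 3) in PTZ and 26.1 ± 6.76 FPKM (SD, n = 2) in Q808. On the log2(FPKM + 0.1) scale PTZ was 1.03 (SE 0.29) above Con., Q808 was -0.94 (SE 0.35) from PTZ, and Q808 was 0.09 (SE 0.25) from Con.

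**Figure D1:**
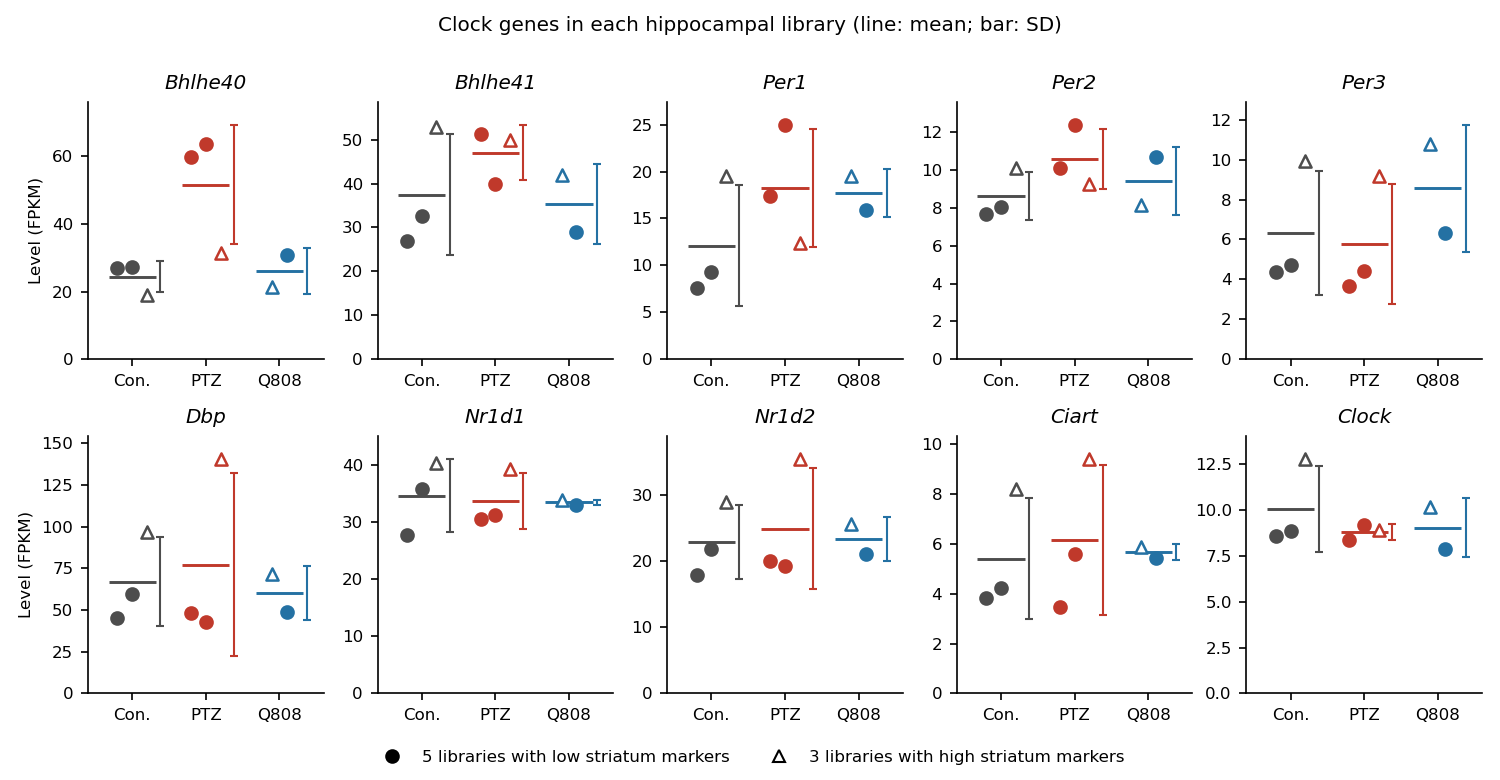
Level in FPKM of the 10 members in each library, with 1 panel per gene, the groups on the horizontal axis, the line at the group mean and the bar beside it spanning the SD (n = 3, 3 and 2). Triangles are the 3 libraries with high striatum markers. *Bhlhe40* stands at 59.8 and 63.6 FPKM in PTZ-1 and PTZ-2, while *Dbp* and *Per3* are higher in the triangles of every group than in any circle.

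*Bhlhe41*, the close relative of *Bhlhe40*, did not separate the groups. It was 26.8, 32.7 and 52.9 FPKM in the Con. libraries in order of number, 51.3, 39.8 and 50.0 FPKM in the PTZ libraries and 41.9 and 29.0 FPKM in the Q808 libraries. Its highest value was in Con.-3, and the 3 ranges overlapped. PTZ was 0.38 (SE 0.26) above Con. on the log2 scale, and Q808 was -0.42 (SE 0.22) from PTZ.

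The period genes, the repressors at the centre of the loop, did not move as 1 group. *Per1* was 7.55, 9.27 and 19.5 FPKM in the Con. libraries, 17.4, 25.0 and 12.4 FPKM in the PTZ libraries and 19.5 and 15.9 FPKM in the Q808 libraries. Con.-1 and Con.-2 were below all other libraries, and Con.-3 was above PTZ-1 and PTZ-3. The log2 difference was 0.65 (SE 0.40) for PTZ against Con., 0.01 (SE 0.31) for Q808 against PTZ and 0.66 (SE 0.42) for Q808 against Con.

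*Per2* was 7.71, 8.08 and 10.1 FPKM in the Con. libraries, 10.1, 12.4 and 9.28 FPKM in the PTZ libraries and 8.14 and 10.7 FPKM in the Q808 libraries. It had the same highest library as *Per1* and *Bhlhe40*, PTZ-2, but its whole range was narrow and PTZ was only 0.29 (SE 0.18) above Con. on the log2 scale. *Per3* was 4.38, 4.70 and 9.93 FPKM in the Con. libraries, 3.65, 4.42 and 9.20 FPKM in the PTZ libraries and 10.8 and 6.32 FPKM in the Q808 libraries. Its 3 high values were the libraries with high striatum markers, and PTZ differed from Con. by -0.15 (SE 0.44).

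*Dbp* was 45.0, 59.5 and 96.7 FPKM in the Con. libraries, 48.4, 42.9 and 140.5 FPKM in the PTZ libraries and 71.9 and 48.9 FPKM in the Q808 libraries. Its SD in the PTZ group was 70.9% of the mean, the largest of any member in any group, and PTZ was 0.06 (SE 0.49) from Con. *Nr1d1* was 27.8, 35.8 and 40.4 FPKM in the Con. libraries, 30.6, 31.3 and 39.4 FPKM in the PTZ libraries and 33.9 and 33.1 FPKM in the Q808 libraries. This was the most even member, with PTZ at -0.03 (SE 0.18) from Con. and Q808 at 0.00 (SE 0.18) from PTZ and -0.03 (SE 0.19) from Con. on the log2 scale. *Nr1d2*, the second receptor of this kind, was 17.9, 21.8 and 28.9 FPKM in the Con. libraries, 20.03, 19.2 and 35.3 FPKM in the PTZ libraries and 25.6 and 21.0 FPKM in the Q808 libraries.

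*Ciart* was 3.82, 4.22 and 8.20 FPKM in the Con. libraries, 3.48, 5.58 and 9.40 FPKM in the PTZ libraries and 5.89 and 5.45 FPKM in the Q808 libraries. *Clock*, the activator of the loop, was 8.57, 8.86 and 12.8 FPKM in the Con. libraries, 8.36, 9.21 and 8.91 FPKM in the PTZ libraries and 10.2 and 7.91 FPKM in the Q808 libraries. Neither separated the groups, and PTZ was 0.15 (SE 0.43) from Con. for *Ciart* and -0.17 (SE 0.19) for *Clock*.

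A gene was called when limma gave an unadjusted p-value under 0.05 and the change was over 1.5-fold. In PTZ against Con. this held for 1 of the 10 members, *Bhlhe40*, and for 2.53% of the 15593 genes tested. In Q808 against PTZ it held for *Bhlhe40* again, lower in Q808, and for 1.92% of all genes. In Q808 against Con. it held for no member and for 3.46% of all genes. The libraries of the groups did not overlap for *Bhlhe40* alone in PTZ against Con., beside 9.15% of all genes. The same held for *Bhlhe40* alone in Q808 against PTZ, beside 15.6% of all genes, and for no member in Q808 against Con., beside 20.0%. The first 2 comparisons share the PTZ libraries, and nothing is read from these counts because the members were chosen with these comparisons known. Over the settings of the analysis the difference of *Bhlhe40* ran from 0.84 to 1.35 in PTZ against Con. and from -1.26 to -0.67 in Q808 against PTZ. In Q808 against PTZ it did not pass the rule without PTZ-1, without PTZ-2 or without Q808-1, nor with no filter on low values, no trend, median ratio scaling or a 2-fold threshold.

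**Figure D2:**
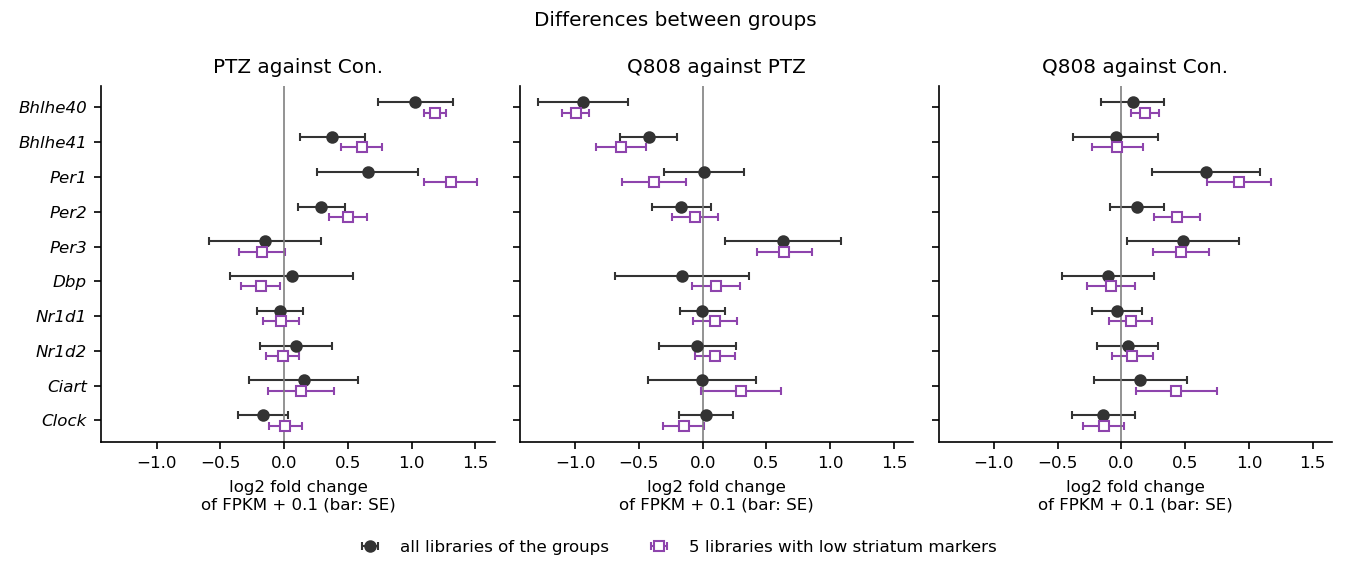
Differences between groups in log2(FPKM + 0.1) for each member in the 3 comparisons, with bars of 1 SE; filled circles use all libraries of the groups and open squares the 5 libraries with low striatum markers. *Bhlhe40* is at 1.03 and 1.18 in PTZ against Con., while *Per1* moves from 0.65 to 1.30 when the 3 libraries are left out.

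Among the 5 libraries with low striatum markers the differences of several members were larger. PTZ-1 and PTZ-2 were above Con.-1 and Con.-2 by 1.18 (SE 0.09) on the log2 scale for *Bhlhe40*, 1.30 (SE 0.21) for *Per1*, 0.61 (SE 0.16) for *Bhlhe41* and 0.50 (SE 0.15) for *Per2*. *Dbp*, *Nr1d1*, *Nr1d2*, *Per3*, *Ciart* and *Clock* lay between -0.18 and 0.13. *Bhlhe40*, *Per1* and *Bhlhe41* passed the rule, beside 9.82% of all genes. In Q808-2 against PTZ-1 and PTZ-2, *Bhlhe40* was -0.997 (SE 0.11), *Bhlhe41* -0.64 (SE 0.20), *Per1* -0.38 (SE 0.25) and *Per3* 0.64 (SE 0.22), and all of these but *Per1* passed the rule, beside 10.4% of all genes. *Per1* was 0.92 (SE 0.25) above Con. in Q808-2 and was the only member past the rule there, beside 4.53% of all genes. As with all libraries, these counts describe members chosen on the same values, and nothing is read from them. The choroid plexus markers were lower in PTZ-1 and PTZ-2 than in the other 3 of these libraries, and their part in these differences was not tested.

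Among the 3 libraries with high striatum markers there is 1 rat per group and no replicate check. *Bhlhe40* was 0.72 higher on the log2 scale in PTZ-3 than in Con.-3 and 0.56 higher in PTZ-3 than in Q808-1, so that it had the same order of groups as in the other 5. *Per1* had the opposite sign, with PTZ-3 at -0.65 from Con.-3 and Q808-1 0.65 above PTZ-3. *Clock* was -0.52 in PTZ-3 from Con.-3, and *Dbp* was 0.54 above it. *Nr1d1* differed by -0.04 in this pair and by -0.03 among the 5 libraries.

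**Figure D3:**
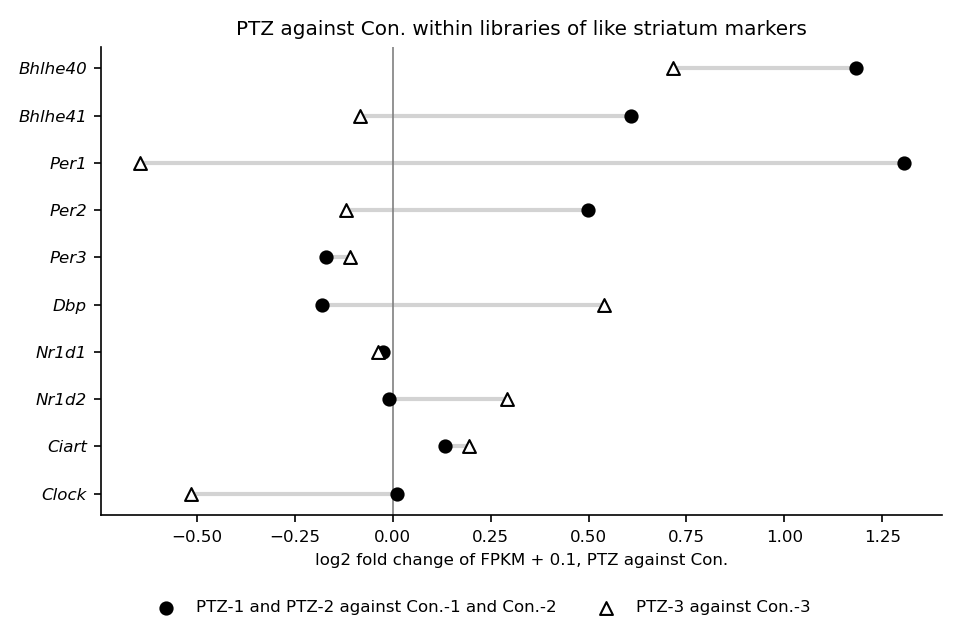
Log2 fold change of PTZ against Con. for each member, computed within libraries of like striatum markers: filled circles are PTZ-1 and PTZ-2 against Con.-1 and Con.-2, and open triangles PTZ-3 against Con.-3 (1 rat each). *Bhlhe40* is above 0 in both sets (1.18 and 0.72), whereas *Per1* is at 1.30 in the one and -0.65 in the other.

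*Per3*, *Dbp*, *Nr1d2* and *Ciart* were higher in each of the 3 libraries with high striatum markers than in any of the other 5, which was so for 4 of the 10 members and for 24.8% of all genes in either direction. Their mean log2 levels differed between the 3 and the 5 libraries by 1.09, 1.03, 0.57 and 0.78. *Bhlhe40* differed by -0.72, with overlapping ranges. The part of tissue composition in these values was not tested, and the striatum, oligodendrocyte, pyramidal cell and dentate granule cell markers moved with them as given above. Measured by library, 9 members were above their own mean in Con.-3 and 8 in Q808-1, while Con.-1 held none above its mean and the lowest value of 5 members.

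The other clock genes were taken as a list of 21, all of which were tested. In PTZ against Con. 1 of the 21 was called, beside 2.53% of all genes. This was *Cry2*, which codes for a cryptochrome, the partner of the period proteins in repression. *Cry2* was 28.3, 29.6 and 36.6 FPKM in the Con. libraries, 56.5, 80.2 and 36.6 FPKM in the PTZ libraries and 35.0 and 35.1 FPKM in the Q808 libraries. PTZ-3 was level with Con.-3, and the excess over Con. was in PTZ-1 and PTZ-2. The log2 difference was 0.81 (SE 0.28), with an unadjusted limma p of 0.0228 and a Benjamini-Hochberg adjusted p of 0.999 that ran from 0.0528 to 1.00 over 19 settings. It was called in 14 of them. It did not pass the correction, and without Con.-1, Con.-2, PTZ-1 or PTZ-2, or with a 2-fold threshold, it was not called. A replicate block, which pairs PTZ and Con. libraries of the same number, kept this call, while the number of genes called went from 395 to 616.

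In Q808 against PTZ and in Q808 against Con. none of the 21 was called by limma, and none had an unadjusted p under 0.05. Over all genes 1.92% and 3.46% were called. *Bmal1*, the partner of *Clock*, was 10.7, 11.3 and 18.4 FPKM in the Con. libraries, 9.27, 7.93 and 10.9 FPKM in the PTZ libraries and 12.8 and 11.3 FPKM in the Q808 libraries. PTZ differed from Con. by -0.49 (SE 0.25) on the log2 scale, with an unadjusted limma p of 0.0847. *Npas2*, which can take the place of *Clock*, was 7.21 to 21.8 FPKM in Con., 11.8 to 16.9 FPKM in PTZ and 11.4 to 17.7 FPKM in Q808, and its highest level in each group was in the library with high striatum markers. *Cry1* was 3.84 to 8.97 FPKM in Con., 4.98 to 7.51 FPKM in PTZ and 4.62 to 6.30 FPKM in Q808. The median log2 difference of the 21 genes in PTZ against Con. was -0.02, and that of all genes was -0.04.

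Among the 5 libraries with low striatum markers 4 of the 21 were called in PTZ against Con., all higher, beside 9.82% of all genes. The log2 differences were 1.22 for *Cry2*, 1.22 for *Usp2*, 1.60 for *Nfil3* and 0.67 for *Npas2*. *Usp2*, a ubiquitin protease that acts on clock proteins, had an adjusted limma p of 0.0287, and the other 3 had 0.0528, 0.145 and 0.104. *Usp2*, *Nfil3* and *Noct* were singled out once their values were known. *Usp2* was 11.2, 11.96 and 16.6 FPKM in the Con. libraries, 24.8, 29.6 and 13.5 FPKM in the PTZ libraries and 12.7 and 14.7 FPKM in the Q808 libraries. *Nfil3*, a repressor at the D-box, was 2.51 to 3.54 FPKM in Con., 6.28, 13.7 and 2.53 FPKM in the PTZ libraries and 6.13 and 3.77 FPKM in the Q808 libraries. In Q808-2, a single rat, against PTZ-1 and PTZ-2, the log2 differences of *Cry2*, *Usp2*, *Nfil3* and *Npas2* were -0.94, -0.88, -1.27 and -0.11. *Npas2* was 0.56 above Con.-1 and Con.-2 in that rat. In Q808-2 against Con.-1 and Con.-2 none of the 21 was called by limma, and 1 had an unadjusted p under 0.05. For these genes PTZ-3 was within or near the Con. range, while *Bhlhe40* was above it in all 3 PTZ libraries.

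**Figure D4:**
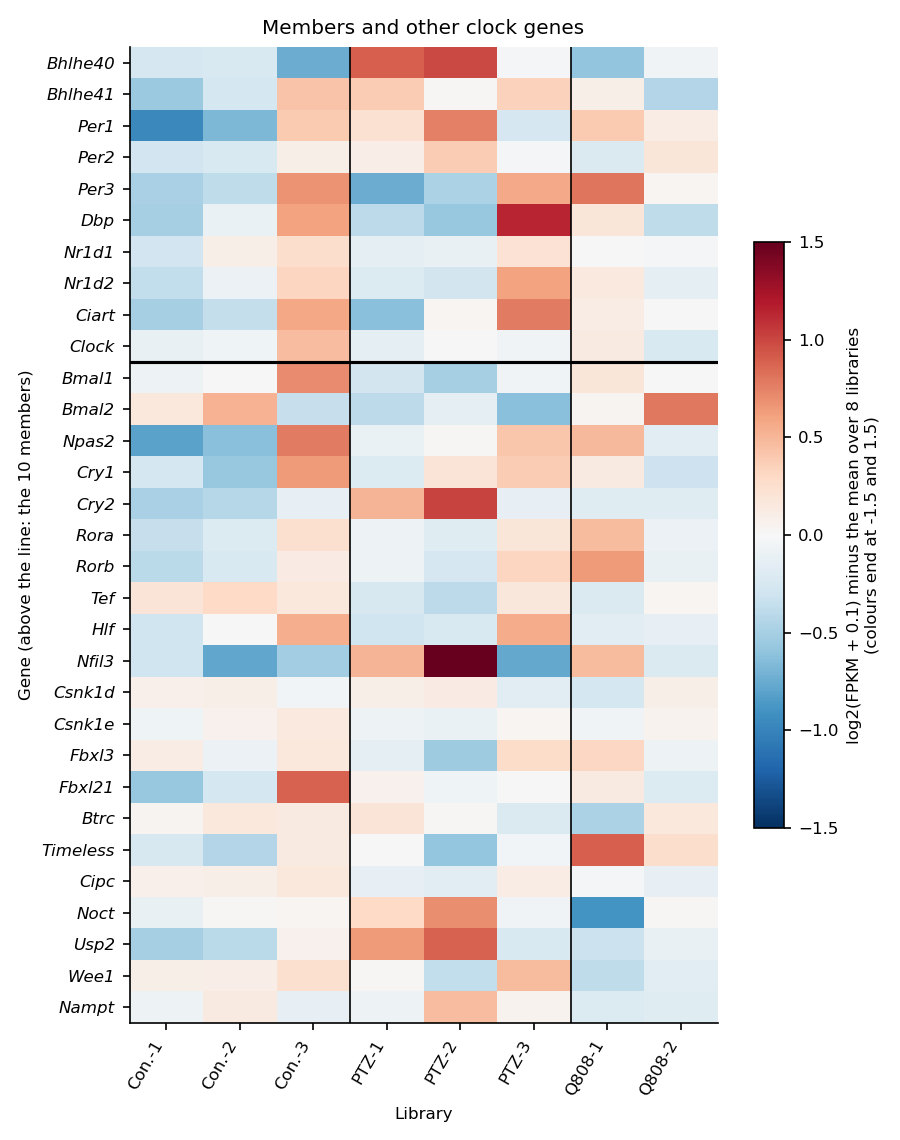
Colours give log2(FPKM + 0.1) of each gene minus its mean over the 8 libraries, for the 10 members above the line and 21 other clock genes under it, with the libraries in columns. *Bhlhe40*, *Cry2*, *Usp2* and *Nfil3* are high in PTZ-1 and PTZ-2, whereas *Dbp*, *Per3*, *Nr1d2*, *Ciart* and *Hlf* are high in Con.-3 and PTZ-3.

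The balance between the arms of the loop was described by the ratio of each member to *Bmal1*. The ratio of *Dbp* to *Bmal1* was 4.21 to 5.61 in 7 libraries and 12.9 in PTZ-3. The ratio of *Per2* to *Bmal1* was 0.548 to 0.721 in Con., 0.855 to 1.56 in PTZ and 0.636 to 0.945 in Q808, and that of *Bhlhe41* was 2.51 to 2.89, 4.60 to 5.54 and 2.56 to 3.27. For 7 of the 10 members the PTZ ratios were all above the Con. ratios, and so were those of 26.0% of all genes tested. Only 0.16% of all genes had PTZ ratios all below the Con. ratios. All ratios share *Bmal1*, which was -0.49 in PTZ from Con. on the log2 scale, so a ratio can rise without its member. The 7 include *Clock* and *Nr1d1*, whose own differences were -0.17 and -0.03, and nothing is read from this count. The ratios of *Dbp*, *Per3* and *Ciart* overlapped between PTZ and Con.

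The genes nearest to *Bhlhe40* over the 8 libraries were not clock genes. Nearness was the root mean square difference between log2(FPKM + 0.1) values, each gene centred on its own mean, among 12553 genes with a mean of at least 1 FPKM. The 5 nearest were *Terf2ip* (0.12), *Rasl11b* (0.17), *Rara* (0.17), *Itpkc* (0.18) and *Nabp1* (0.19). *Terf2ip*, whose protein sits at telomeres, was 32.5, 32.2 and 24.4 FPKM in the Con. libraries, 62.0, 73.6 and 30.4 FPKM in the PTZ libraries and 26.0 and 36.1 FPKM in the Q808 libraries. Of the clock genes *Cry2* was nearest, at 0.32 with 62 genes nearer. *Usp2* followed at 0.34 with 85, and then *Noct*, a gene with a daily rhythm, at 0.39 with 187. The nearest member was *Per2*, at 0.49 with 797 genes nearer, and *Dbp* and *Per3* were farthest at 1.00 and 1.07. Measured from *Dbp* instead, which was added once the values were known, the nearest members were *Nr1d2* (0.27), *Ciart* (0.31) and *Per3* (0.37), and *Bhlhe40* was at 1.00. The 8 libraries share their tissue composition and group structure, so these distances are a description.

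Immediate early genes, which neurons switch on within minutes of activity, were taken as a list of 20. Their mean log2(FPKM + 0.1) was 3.25, 3.43 and 4.24 in the Con. libraries, 5.12, 6.05 and 3.37 in the PTZ libraries and 4.004 and 4.07 in the Q808 libraries. PTZ-1 and PTZ-2 were thus the highest, as they were for *Bhlhe40* and *Cry2*, while PTZ-3 was at the level of Con.-1 and Con.-2. *Fos*, the classic gene of this kind, was 5.70, 7.71 and 22.4 FPKM in the Con. libraries, 31.7, 150.1 and 12.5 FPKM in the PTZ libraries and 28.7 and 21.5 FPKM in the Q808 libraries. *Arc*, which acts at synapses, was 30.4, 34.3 and 89.6 FPKM, 245.9, 326.4 and 26.1 FPKM, and 48.6 and 26.8 FPKM in the same order. *Npas4*, an activity-dependent transcription factor, was between 1.28 and 7.54 FPKM, with its highest value in PTZ-2. Its log2 difference in PTZ against Con. was 0.79 (SE 0.57), and 1.06 (SE 0.67) among the 5 libraries with low striatum markers.

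In PTZ against Con. 2 of the 20 immediate early genes were called, *Fosb* and *Gadd45b*, beside 2.53% of all genes. Their log2 differences were 3.26 (SE 1.32) and 1.88 (SE 0.79), with adjusted limma p-values of 0.999 for both. The median difference of the list was 1.03, against -0.04 for all genes. Among the 5 libraries 18 of 20 were called as higher, beside 9.82% of all genes, with a median of 1.93 against -0.11 for all genes. In Q808 against PTZ *Homer1* was called as lower (-1.03, SE 0.41, limma, adjusted p = 0.952), and in Q808 against Con. *Fosb* as higher (1.95, SE 0.63, limma, adjusted p = 0.901). These calls stood beside 1.92% and 3.46% of all genes. Among the 5 libraries 11 of the 20 were called as lower in Q808-2 against PTZ-1 and PTZ-2, beside 10.4% of all genes, with a median of -1.23 against 0.16, and 4 of these had an adjusted limma p under 0.05. They were *Arc* (-3.40, SE 0.19), *Egr3* (-3.37, SE 0.19), *Ptgs2* (-3.10, SE 0.20) and *Gadd45b* (-2.75, SE 0.26). In Q808-2 against Con.-1 and Con.-2, 6 were called as higher, beside 4.53% of all genes, none with an adjusted limma p under 0.05, and the median was 0.61 against 0.05. In PTZ-3 *Bhlhe40* was above every Con. library, and the mean of the list was below those of Con.-2 and Con.-3. PTZ-3 and Con.-3 had high striatum markers, unlike Con.-2, so these levels also differ in tissue composition. The parts of neuronal activity and of tissue composition in the level of *Bhlhe40* were not tested.

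**Figure D5:**
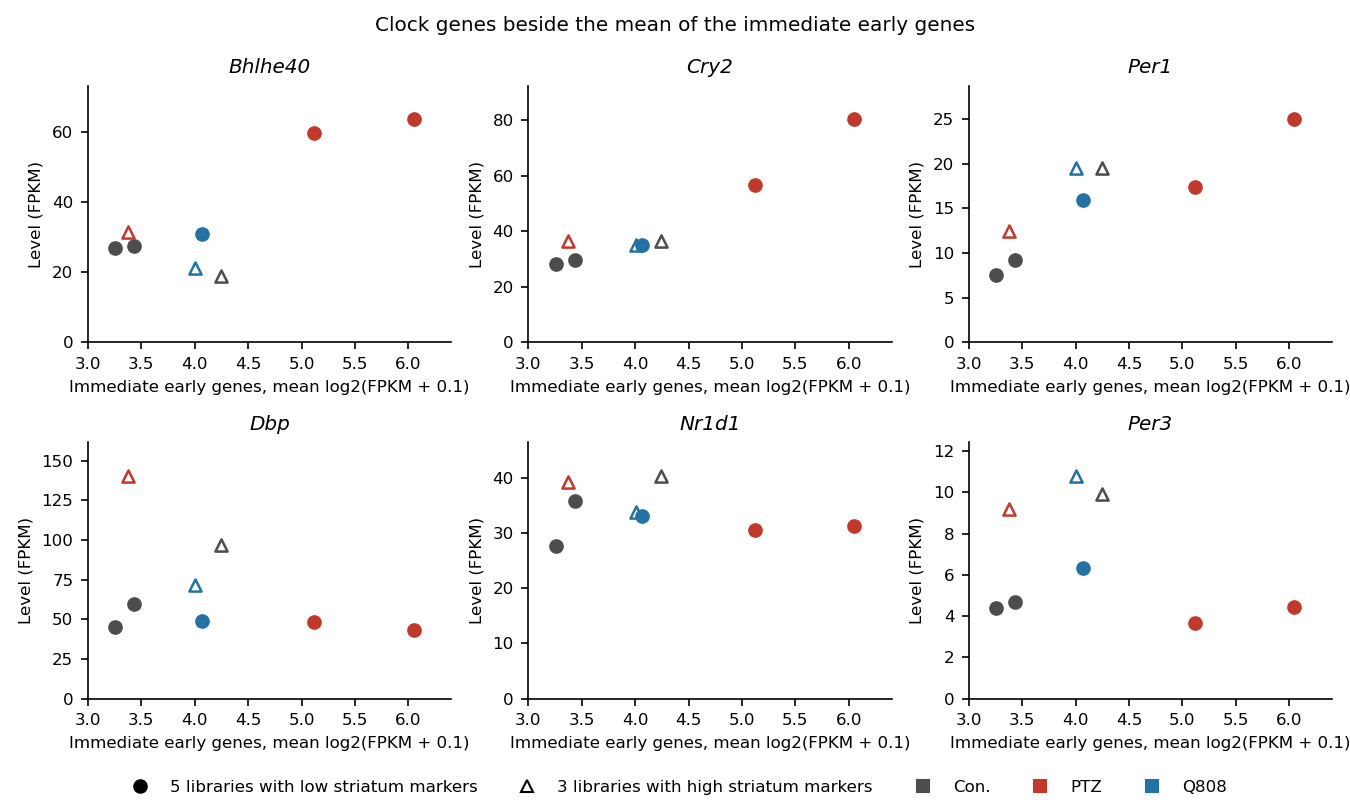
Level in FPKM of 5 members and *Cry2* (vertical axes) beside the mean log2(FPKM + 0.1) of 20 immediate early genes (horizontal axes) in each library, coloured by group, with triangles for the 3 libraries with high striatum markers. *Bhlhe40*, *Cry2* and *Per1* are highest in PTZ-2, at an immediate early gene mean of 6.05. *Dbp* is lowest there at 42.9 FPKM, near Con.-1 at 45.0 FPKM, and its triangles are above all its circles.

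A list of 12 genes that glucocorticoids, the stress hormones of the adrenal gland, induce was also read, since *Per1* is among their known targets. Its mean log2 level was 2.42, 2.68 and 2.61 in the Con. libraries, 3.63, 3.56 and 2.59 in the PTZ libraries and 3.49 and 3.20 in the Q808 libraries. PTZ-3 was again within the Con. range, and both Q808 libraries were above it. In PTZ against Con. 4 of the 12 were called, all higher, beside 2.53% of all genes, and the smallest p-values were those of *Map3k6* (1.69, SE 0.42), *Pdk4* (1.01, SE 0.32) and *Cdkn1a* (1.30, SE 0.41), each with an adjusted limma p of 0.999. *Sgk1*, a kinase induced by these hormones, was called as well at 0.62 (SE 0.22). Among the 5 libraries 8 of the 12 were called, all higher, beside 9.82% of all genes. The median of the list was 0.99 there and 0.64 with all libraries, against -0.11 and -0.04 for all genes. In Q808 against Con. 6 of the 12 were called, all higher, beside 3.46% of all genes, and the smallest p-values were those of *Cdkn1a* (1.57, SE 0.17, limma, adjusted p = 0.492), *Errfi1* (0.94, SE 0.18) and *Map3k6* (1.46, SE 0.35), the last 2 with an adjusted limma p of 0.901. The largest difference was that of *Pdk4* (1.61, SE 0.51). Among the 5 libraries 6 were again called as higher, beside 4.53% of all genes. None was called in Q808 against PTZ with all libraries, where none had an unadjusted limma p under 0.05. The median was 0.18, against 0.10 for all genes. In Q808-2 against PTZ-1 and PTZ-2 the median turned to -0.35, with 11 of the 12 negative, and 4 were called as lower, beside 10.4% of all genes. These were *Klf9* (-0.82, SE 0.16), *Zbtb16* (-0.69, SE 0.22), *Fkbp5* (-0.68, SE 0.18) and *Errfi1* (-0.65, SE 0.26), with adjusted limma p-values of 0.126, 0.282, 0.225 and 0.325. *Fkbp5*, a chaperone gene often used as a readout of these hormones, was 19.2 to 20.02 FPKM in Con., 13.0 to 29.9 FPKM in PTZ and 11.7 and 16.2 FPKM in Q808.

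*Bhlhe40* and *Bhlhe41* are also induced by low oxygen, so a list of 12 hypoxia-induced genes was read beside them. In PTZ against Con. *Slc2a1*, the glucose transporter of brain vessels and glia, and *Adm*, which codes for a vessel-dilating peptide, were called as higher by 0.82 (SE 0.13) and 1.36 (SE 0.33) on the log2 scale, both with an adjusted limma p of 0.999. These were 2 of the 12, beside 2.53% of all genes. *Slc2a1* was 50.2, 52.0 and 58.7 FPKM in the Con. libraries, 94.5, 105.0 and 84.5 FPKM in the PTZ libraries and 130.6 and 72.2 FPKM in the Q808 libraries. It was above Con. in every PTZ and Q808 library and highest in Q808-1. Q808-1 also held the highest endothelial, astrocyte and oligodendrocyte marker levels. *Bhlhe40* was 21.3 FPKM there and 19.1 FPKM in Con.-3, the Con. library with high striatum markers. In Q808 against PTZ *Ldha*, an enzyme of glycolysis, was called as lower by 0.69 (SE 0.29, limma, adjusted p = 0.952), beside 1.92% of all genes. In Q808 against Con. *Slc2a1* was called as higher by 0.86 (SE 0.27, limma, adjusted p = 0.901), beside 3.46% of all genes. Neither was called in the 5 libraries, which leave out Q808-1, where *Ldha* was -0.32 (SE 0.13) and *Slc2a1* 0.50 (SE 0.11). There 4 of the 12 were called in PTZ against Con., beside 9.82% of all genes: *Slc2a1* (0.96, SE 0.09), *Adm* (1.45, SE 0.33) and *Pfkfb3* (1.08, SE 0.17) as higher and *Ankrd37* (-0.66, SE 0.19) as lower, of which *Slc2a1* had an adjusted limma p of 0.0251. In Q808-2 against PTZ-1 and PTZ-2 *Pfkfb3* was called as lower (-0.96, SE 0.21) and *Car9* as higher (1.35, SE 0.51), and against Con.-1 and Con.-2 *Ankrd37* as lower (-0.61, SE 0.24), beside 10.4% and 4.53% of all genes. *Pfkfb3*, *Ankrd37* and *Car9*, like *Egr3*, *Ptgs2*, *Klf9* and *Zbtb16* above, were named once their values were known. *Car9* was near the 0.1 FPKM added before the log, at 0.16 and 0.07 FPKM in PTZ-1 and PTZ-2 and 0.43 FPKM in Q808-2. *Vegfa* was 22.9 to 36.0 FPKM in Con., 31.0 to 38.3 FPKM in PTZ and 31.2 and 45.3 FPKM in Q808. The median log2 difference of this list in PTZ against Con. was 0.23, against -0.04 for all genes. Among the 5 libraries it was 0.17, against -0.11 for all genes. The parts of hormones and of oxygen in the levels of the members were not tested.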

How the data were processed

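Hippocampal RNA of 8 rats was sequenced, with 1 library per rat (3 Con., 3 PTZ and 2 Q808). Before deposit, reads were trimmed with Trimmomatic, and the authors computed FPKM per gene with Cufflinks. The submitters' processing notes also name HISAT2, Bowtie2, StringTie, HTSeq, DESeq and SAMtools without a role, and the genome build is not given in the sources used here. The deposited FPKM hold no counts, so depth and counting error are unknown and the precision of each value is the spread between rats. Cufflinks can divide reads between transcripts and near-identical copies in a way FPKM does not show.

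Values were joined by NCBI GeneID, and symbols came from RefSeq (GRCr8) for 20633 of 22601 genes, used for names only. All 124 listed genes were matched. The lists leave out 2 genes that are not reported here. The 15593 genes with a mean of at least 0.1 FPKM were tested on log2(FPKM + 0.1), a scale that understates the change of low genes, in R 4.3.3 with limma 3.58.1 (empirical Bayes with a mean-variance trend, two-sided), each comparison on its own groups. A call needed an unadjusted p-value under 0.05 together with over 1.5-fold change, and p-values were adjusted over all genes tested by Benjamini-Hochberg. Tables and plots were made with pandas 2.3.3, numpy 2.4.6 and matplotlib 3.10.9 in Python 3.11.15. The procedure was checked on simulated data with large planted changes, for their direction only and at a smaller spread than that of the libraries. This check says nothing of the share of false calls in these data. The 5 libraries with low striatum markers were fitted together for all 3 groups, so that Q808-2 is assumed to vary like the others.

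The members and all gene and marker lists were chosen with earlier results of these data known. The genes named were the members, the partners *Bmal1*, *Npas2*, *Cry1* and *Cry2*, any other clock gene called, 7 fixed genes of the activity, hormone and hypoxia lists with up to 3 called genes of each, and the 5 genes nearest to *Bhlhe40*.

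Groups and replicate numbers came from the labels, which do not say that equal numbers share a batch. Deviations from the group means of PTZ and Con. libraries with the same number correlated at 0.212, 0.299 and 0.422, so the number was used as a block in an alternative fit, although PTZ-1 and Con.-2 reached 0.322. The value of 0.422 is that of PTZ-3 and Con.-3, both with high striatum markers. A shared batch and shared tissue composition cannot be told apart in these correlations. In the Q808 comparisons there were 2 same-numbered pairs, at -0.295 and 0.322 against PTZ and at -0.379 and 0.527 against Con. The other alternatives were pseudocounts of 1 and 0.01, no filter on low values, a mean of at least 1 FPKM, all groups in 1 fit, no trend, quantile normalization, median ratio scaling, a 2-fold threshold, the striatum mean as a covariate, the 5 libraries alone and each library left out in turn.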

Additional observations from a re-analysis of the deposited data

How the results depend on the processing

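Of the alternative values for the log2 differences of the members, which are given without a test, 515 moved by less than the spread between libraries and 5 by more. Some alternatives cannot move a log2 difference: no filter, a mean of at least 1 FPKM, all groups in 1 fit, no trend and a 2-fold threshold. Their values are part of the 515, so this count is no measure of stability. *Cry2* in PTZ against Con. kept its call under 13 alternatives and lost it under 5. Nothing is read from the counts of members called, since the members were chosen on these libraries. In PTZ against Con. 395 genes, 1 member and 1 other clock gene were called. There were 219 genes with a pseudocount of 1, 191 with a 2-fold threshold (and 0 other clock genes), 677 with the striatum covariate (and 2 other clock genes), 2 other clock genes with all groups in 1 fit, and 1532 genes, 3 members and 4 other clock genes in the 5 libraries. Leaving out each library gave 249 to 1135 genes, 1 to 3 members and 0 to 3 other clock genes, with 249 genes without PTZ-2, 639 genes and 3 members without Con.-3 and 1135 genes without PTZ-3. In Q808 against PTZ 300 genes, 1 member and 0 other clock genes were called. There were 193 genes at a mean of at least 1 FPKM, 183 genes and 0 members with a 2-fold threshold, 664 genes and 1 other clock gene with the covariate, and 1625 genes, 3 members and 3 other clock genes in the 5 libraries. The member count was 0 with no filter, with no trend and with median ratio scaling, and 1 other clock gene was called with no filter, with no trend and with all groups in 1 fit. Leaving out each library gave 132 to 1569 genes (132 without PTZ-1, 149 without PTZ-2, 1301 without Q808-2 and 1569 without PTZ-3), 0 to 2 members and 0 to 3 other clock genes. In Q808 against Con. 540 genes and 0 of each list were called. There were 340 genes with a pseudocount of 1, 257 with a 2-fold threshold, 967 with the covariate, 1 other clock gene with no trend, and 1 member in the 5 libraries. Leaving out each library gave 279 to 1799 genes (279 without Con.-2, 351 without Q808-1 and 1799 without Q808-2), 0 to 2 members and 0 to 2 other clock genes. With the replicate number as a block there were 616 genes in PTZ against Con., 1894 genes, 2 members and 3 other clock genes in Q808 against PTZ, and 1076 genes, 2 members and 2 other clock genes in Q808 against Con., where the numbers do not pair the libraries. The share of calls that were higher in Q808 against PTZ was 70.7%, and 47.8% after quantile normalization, and in Q808 against Con. it was 88.7%, 64.2% after quantile normalization and 80.2% after median ratio scaling. The causes of these changes were not tested. Without counts, low genes such as *Bmal2*, *Timeless*, *Car9*, *Adm* and *Map3k6* have no known counting error.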
